A study of Homo sapiens with 6 samples.

Results

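The 50 genes described here carry a cell through mitosis: the G2/M cyclins and their kinase, the mitotic kinases, and genes of the spindle checkpoint, kinetochore, spindle, cytokinesis and chromosome condensation. They were taken by gene symbol from a table of 37822 symbols, and all 50 were found and passed the filter on low counts that left 14253 genes for testing. The smallest member by mean count, NUSAP1, had 26.5 counts per library. The 6 libraries were made from total RNA of Huh7, a line of human hepatocellular carcinoma cells. Libraries of 3 FLAG replicates, labelled as wild type and infected with a control lentivirus, were set against 3 VPS72 replicates infected with a lentivirus that overexpresses VPS72. Both groups share the infection itself, with virus made in HEK293T cells and left on the cells for 24 h. The sources used here give neither the promoter of the transgene, nor whether infected cells were selected, nor whether replicates were separate cultures. The p-values below therefore measure the spread between libraries, and that spread may be technical.

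Entry into mitosis is driven by CDK1 bound to cyclin B, and the cell leaves mitosis when the anaphase-promoting complex, APC/C, marks cyclin B and securin for destruction. Most genes of this programme are silent in resting cells and are switched on together in G2 by the MuvB complex with B-Myb (MYBL2) and FOXM1. This control acts through a promoter element called the CHR, often beside CCAAT boxes bound by NF-Y. VPS72 is a subunit of the SRCAP and TIP60 complexes, which place and modify the histone variant H2A.Z.

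Promoter sequences of the members are shown as a description of the list. Whether they have a part in the differences between the groups was not tested. CHR and CCAAT letters were found in most but not all of these promoters. The choice of genes did not use these letters, but they belong to the known control of this programme. A high share was therefore likely from the choice itself. Of the 50 members, 42 had an entry in the RefSeq promoter table (GRCh38.p14), which gives 250 bases before to 50 after each annotated start. The 8 shown run from 130 bases before the start to the base before it, read 5′ to 3′ on the gene's strand, with capitals for CHR hexamers (TTTGAA, its reverse complement TTCAAA, or TTTAAA) and CCAAT pentamers (CCAAT, or ATTGG on the other strand). They were picked after the values were seen, to set 6 members with groups apart and log2 fold changes from 0.17 to 0.29 beside BUB1B and NCAPH, the members nearest to 0. All 8 lie on the plus strand, CCNB2 at chr15:59105016-59105145, CDCA8 at chr1:37692386-37692515, CCNB1 at chr5:69167020-69167149, PLK1 at chr16:23678759-23678888, KIF20A at chr5:138178982-138179111, ESPL1 at chr12:53268169-53268298, BUB1B at chr15:40160939-40161068 and NCAPH at chr2:96335636-96335765.
CCNB2: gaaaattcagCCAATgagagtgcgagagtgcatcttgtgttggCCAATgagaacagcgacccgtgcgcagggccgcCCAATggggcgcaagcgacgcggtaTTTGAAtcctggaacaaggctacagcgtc
CDCA8: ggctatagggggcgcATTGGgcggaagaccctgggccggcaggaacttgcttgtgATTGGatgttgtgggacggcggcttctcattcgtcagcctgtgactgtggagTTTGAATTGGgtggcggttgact
CCNB1: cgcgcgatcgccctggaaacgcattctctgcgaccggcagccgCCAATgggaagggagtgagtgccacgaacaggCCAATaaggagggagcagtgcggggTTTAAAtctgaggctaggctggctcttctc
PLK1: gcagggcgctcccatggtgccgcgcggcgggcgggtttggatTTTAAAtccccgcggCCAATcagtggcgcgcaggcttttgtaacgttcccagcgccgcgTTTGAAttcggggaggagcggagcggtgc
KIF20A: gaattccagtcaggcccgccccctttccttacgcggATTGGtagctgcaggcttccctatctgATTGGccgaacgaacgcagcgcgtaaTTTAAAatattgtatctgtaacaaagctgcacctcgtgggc
ESPL1: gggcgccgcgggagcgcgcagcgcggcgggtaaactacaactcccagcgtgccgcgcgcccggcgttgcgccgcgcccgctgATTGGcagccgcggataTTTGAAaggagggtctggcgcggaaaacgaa
BUB1B: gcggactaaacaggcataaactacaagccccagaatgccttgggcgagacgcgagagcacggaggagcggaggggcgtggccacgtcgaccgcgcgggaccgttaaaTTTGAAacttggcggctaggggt
NCAPH: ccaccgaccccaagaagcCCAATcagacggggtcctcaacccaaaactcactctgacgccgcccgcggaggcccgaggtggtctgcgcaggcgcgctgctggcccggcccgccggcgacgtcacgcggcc

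In the printed window CCNB2 has 3 CCAAT pentamers, beginning 120, 87 and 54 bases before the start, and a CHR hexamer 29 bases before it. In CDCA8 a CHR hexamer and a CCAAT pentamer on the other strand overlap in 1 run of capitals. BUB1B has a CHR hexamer 23 bases before the start and has no CCAAT pentamer in the printed window, while NCAPH has a CCAAT pentamer and no CHR hexamer there. NCAPH does have a CHR hexamer beginning 32 bases after the start, outside the printed window, so it counts below among the members with both, and no contrast between these 8 is to be read from the printed letters. Several genes have more than 1 start, so the 42 members gave 51 promoters. Some of these windows overlap, as in PTTG1, so the same bases can count in more than 1 promoter. A CHR hexamer was present in 41 of these 51 (80.4%), against 24.0% of all 35116 promoters in the table. A CCAAT pentamer was present in 36 (70.6%, against 34.6%), and both in 31 (60.8%, against 9.27%). At least 2 CCAAT pentamers were present in 23 of the 51 (45.1%, against 10.8%). A match is a description of the letters in this window, not a site or a cause. The 8 members with no entry were PBK, BIRC5, AURKA, FOXM1, UBE2C, TTK, BUB3 and TPX2.

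**Figure D1:**
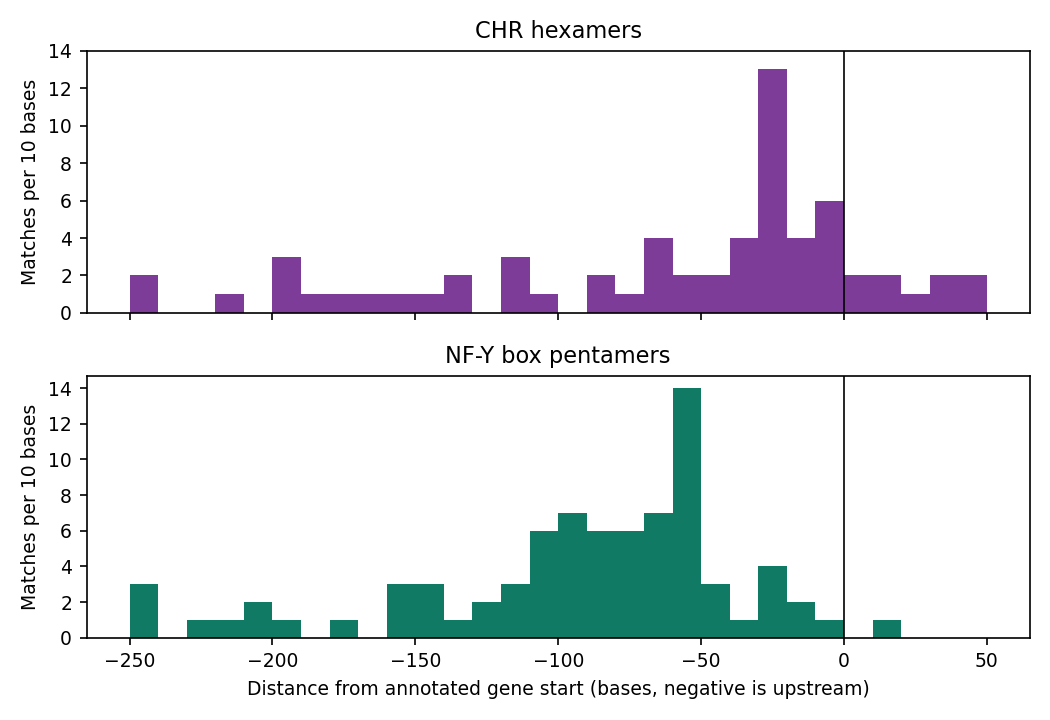
Positions of CHR hexamers (upper panel) and NF-Y box pentamers (lower panel) in the 51 promoters of 42 mitotic genes, as matches per 10 bases against the distance of the match from the annotated gene start. Of 64 CHR matches 31 begin within 60 bases before the start, and of 79 NF-Y box matches 52 begin between 120 and 40 bases before it.

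The comparison asks whether raising VPS72 changes the transcripts of this programme. All 50 members had a higher fitted level in the VPS72 libraries, by small amounts, and 47 did with scaling to library size only or with the trend on abundance removed. The log2 fold changes ran from 0.01 for BUB1B to 0.31 for CDC25C, with a median of 0.12, a change of 8.44%. The median over all 14253 tested genes was -0.0038, and 48.8% of them had a positive log2 fold change. Of the members, 2 rose by the test, CCNB2 and CDCA8, 0 fell and 48 did not pass (edgeR quasi-likelihood, Benjamini-Hochberg adjusted p under 0.05 over all genes). Of all tested genes 0.421% were called higher, 0.196% lower and 0.617% in either direction. The groups did not overlap in 27 members, all higher with VPS72, against 8.76% of tested genes higher and 8.47% lower without overlap. At an unadjusted p under 0.05, 24 members were higher and 0 lower, against 6.03% and 5.51% of tested genes. DESeq2 called 10 members higher, against 1.3% of tested genes, and limma-voom 4, against 0.645%. The call of CCNB2 was lost without any 1 of the 6 libraries (edgeR, adjusted p from 0.0674 to 0.21) and that of CDCA8 without each of 5 (edgeR, adjusted p up to 0.203), all but VPS72 replicate 2 (0.0444). Both calls were lost with scaling to library size only, and also with the replicate number as a block. That of CDCA8 was lost too with upper quartile scaling, a minimum count of 50, limma-voom or the abundance trend removed.

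VPS72 itself was at 26.7, 21.3 and 23.8 CPM (counts scaled to a common library total, TMM-adjusted) in the FLAG group and at 1150, 1173 and 1161 CPM after overexpression, each in the order of replicates 1 to 3, in the direction of the labels. Library totals were 21345279 to 25352335 counts in FLAG and 23969324 to 29091824 in VPS72. In bulk RNA, more cells in G2 and mitosis and more of these transcripts per cell cannot be told apart.

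**Figure D2:**
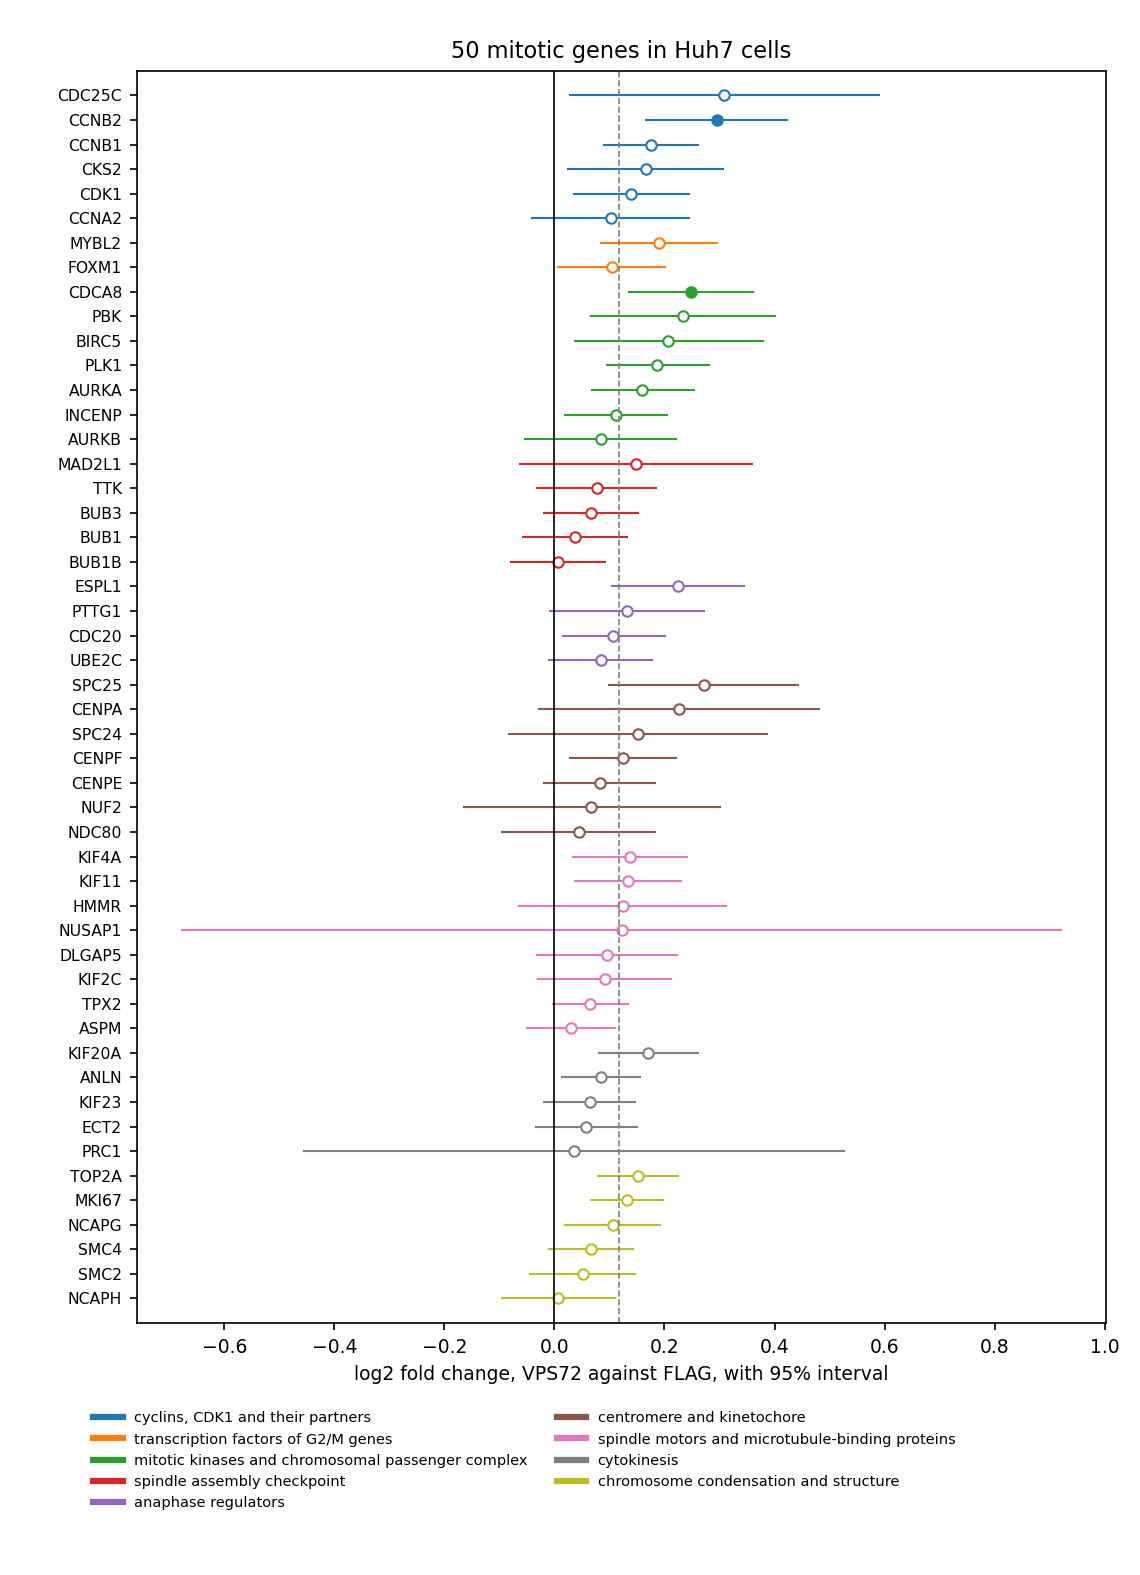
Log2 fold change of each of the 50 mitotic genes, VPS72 against FLAG (points), with its 95% interval (lines), coloured by role. Filled points are CCNB2 and CDCA8, which passed an adjusted p of 0.05 (edgeR). The dashed line is the median of the 50 genes, 0.12, and all points lie above 0.

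Among the cyclins, CDK1 and their partners, 1 of 6 rose and 5 did not pass, with a median log2 fold change of 0.17. Cyclin B2 (CCNB2), a partner of CDK1, was at 37.0, 38.5 and 39.6 CPM in FLAG and at 47.8, 46.2 and 47.2 CPM with VPS72, given here and below in the order of replicates 1 to 3. Its lowest VPS72 library lay above its highest FLAG library, and it rose by 22.7% (log2 fold change 0.29 ± 0.06 SE; edgeR, adjusted p = 0.0419). Cyclin B1 (CCNB1), the main mitotic cyclin, was at 165, 161 and 155 CPM in FLAG and at 184, 181 and 178 CPM with VPS72. The 2 groups of CCNB1 did not overlap either, and its log2 fold change of 0.17 ± 0.04 did not pass (edgeR, adjusted p = 0.0672).

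CDK1, the kinase of both cyclins, was at 79.3, 87.6 and 81.7 CPM in FLAG and at 93.8, 92.5 and 87.5 CPM with VPS72. VPS72 replicate 3 lay just below FLAG replicate 2, and the log2 fold change was 0.14 ± 0.05 (edgeR, adjusted p = 0.266). Cyclin A2 (CCNA2), which acts in S phase and G2, was at 45.8 to 50.4 CPM in FLAG and 48.5 to 55.5 CPM with VPS72, with overlap and a log2 fold change of 0.10 ± 0.07, which was 0.04 without VPS72 replicate 2. CDC25C, a phosphatase that activates CDK1, had the largest log2 fold change of the members, 0.31 ± 0.13, with a 95% interval of 0.03 to 0.59. It was at 9.26 to 10.1 CPM in FLAG, and VPS72 replicate 1, at 14.3 CPM, stood above the other VPS72 libraries at 10.3 and 11.6 CPM. CKS2, a small subunit of the CDK1 complex, had 0.17 ± 0.07, with groups that nearly met, FLAG replicate 2 at 47.1 and VPS72 replicate 1 at 47.2 CPM.

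Of the 2 transcription factors of G2/M genes, neither passed. MYBL2 was at 178, 196 and 208 CPM in FLAG and at 221, 229 and 214 CPM with VPS72. Its groups did not overlap, with FLAG replicate 1 lowest, and the log2 fold change was 0.19 ± 0.05 (edgeR, adjusted p = 0.12). FOXM1 was at 221, 233 and 212 CPM in FLAG and at 253, 232 and 231 CPM with VPS72, where only VPS72 replicate 1 exceeded every FLAG library (log2 fold change 0.10 ± 0.05; edgeR, adjusted p = 0.402).

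Of the 7 mitotic kinases and passenger complex genes 1 rose and 6 did not pass, and this group had the largest median of the 9 role groups, 0.19. CDCA8 (borealin), which brings Aurora B to centromeres, was at 73.4, 67.5 and 71.8 CPM in FLAG and at 88.7, 79.2 and 84.9 CPM with VPS72. The groups were apart and it rose by 18.8% (log2 fold change 0.25 ± 0.05 SE; edgeR, adjusted p = 0.0498, just inside the threshold). Its partners in the complex gave 0.21 ± 0.08 for BIRC5 (survivin), 0.11 ± 0.04 for INCENP, the scaffold, and 0.08 ± 0.07 for AURKB, the kinase, and none of these 3 passed. AURKB ran from 58.6 to 65.5 CPM in FLAG and from 59.5 to 71.1 CPM with VPS72, where VPS72 replicate 3 lay below 2 FLAG libraries. When 1 library was left out, the log2 fold change of AURKB ran from 0.03 without VPS72 replicate 1 to 0.15 without VPS72 replicate 3.

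PLK1, the Polo-like kinase of mitotic entry and spindle assembly, was at 94.9, 96.0 and 98.4 CPM in FLAG and at 112, 112 and 105 CPM with VPS72. Every VPS72 library lay above every FLAG library, and the test was not passed at a log2 fold change of 0.19 ± 0.04 (edgeR, adjusted p = 0.0716). AURKA, the centrosomal Aurora kinase, had a log2 fold change of 0.16 ± 0.04 and PBK, a mitotic kinase, 0.23 ± 0.08, both with groups apart. DESeq2 called CCNB1, CCNB2, MYBL2, PLK1, AURKA, CDCA8, ESPL1, KIF20A, TOP2A and MKI67 higher.

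**Figure D3:**
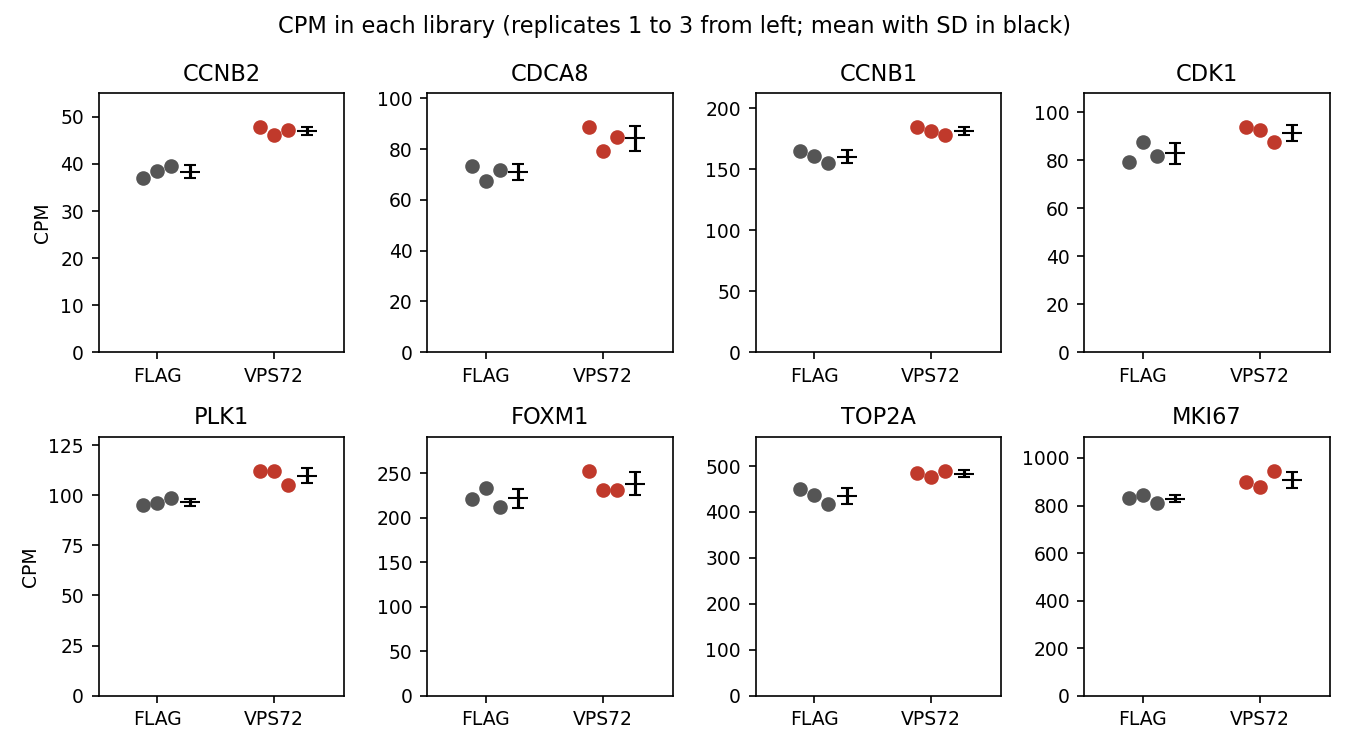
CPM of 8 mitotic genes in each library (points, replicates 1 to 3 from left) with the group mean and SD (black, n = 3). FLAG and VPS72 points do not overlap for CCNB2, CDCA8, CCNB1, PLK1, TOP2A and MKI67, and overlap for CDK1 and FOXM1.

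The 5 spindle assembly checkpoint genes, which hold the cell in metaphase until every kinetochore is attached, had a median of 0.07, and 0 of 5 passed. BUB1B (BubR1), part of the complex that inhibits APC/C, was at 113 CPM in each FLAG library and at 112, 113 and 115 CPM with VPS72. That is the smallest difference of the 50, with a log2 fold change of 0.01 ± 0.04 and a 95% interval of -0.08 to 0.09, and the sign of so small a value turned with other settings. BUB3, its binding partner, ran from 140 to 147 CPM in FLAG and from 149 to 153 CPM with VPS72, without overlap (0.07 ± 0.04; edgeR, adjusted p = 0.582). BUB1 and TTK, the checkpoint kinases, had log2 fold changes of 0.04 ± 0.05 and 0.08 ± 0.05, and MAD2L1, the Mad2 protein that captures CDC20, 0.15 ± 0.10.

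The 4 anaphase regulators were all higher without overlap between the groups, with a median of 0.12, and 0 of 4 passed. ESPL1 (separase), the protease that cuts cohesin, was at 67.6, 69.5 and 71.9 CPM in FLAG and at 88.3, 79.8 and 75.9 CPM with VPS72 (log2 fold change 0.22 ± 0.06; edgeR, adjusted p = 0.0978). Its libraries were apart, though VPS72 replicate 3 lay nearer to FLAG replicate 3 than to VPS72 replicate 1. PTTG1 (securin), which holds separase inactive, had 0.13 ± 0.07, and CDC20, the APC/C activator, 0.11 ± 0.04. UBE2C, the E2 enzyme of APC/C, was at 87.0, 89.0 and 91.7 CPM in FLAG and at 93.7, 97.7 and 92.3 CPM with VPS72 (0.08 ± 0.05).

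The 7 centromere and kinetochore genes had a median of 0.12, and 0 of 7 passed. The 4 subunits of the NDC80 complex, which binds the ends of spindle microtubules, gave different values. SPC25 was at 25.8, 24.5 and 23.5 CPM in FLAG and at 27.4, 30.2 and 31.5 CPM with VPS72, with the groups apart (0.27 ± 0.08; edgeR, adjusted p = 0.166). Its partner SPC24 had 0.15 ± 0.11, and NDC80 and NUF2, the other two subunits, 0.04 ± 0.07 and 0.07 ± 0.11, all with overlapping groups. NUF2 ran from 15.4 to 20.2 CPM in FLAG and from 16.9 to 20.1 CPM with VPS72. CENPA, the histone H3 variant of centromeres, was at 8.15 to 8.63 CPM in FLAG and 9.40 to 10.2 CPM with VPS72 (0.23 ± 0.12). CENPF and CENPE, large proteins of the outer kinetochore, had 0.12 ± 0.05 and 0.08 ± 0.05.

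Of 8 spindle motors and microtubule-binding genes 0 passed, with a median of 0.11. KIF11 (Eg5), the motor that pushes the spindle poles apart, was at 93.6, 90.2 and 93.6 CPM in FLAG and at 102, 96.4 and 105 CPM with VPS72 (0.13 ± 0.05; edgeR, adjusted p = 0.25). KIF4A, a chromosome-bound kinesin, had 0.14 ± 0.05, and its near-identical copy KIF4B held 2 to 7 counts per library. TPX2, the activator of AURKA, stood at 357 to 362 CPM in FLAG and 375 to 381 CPM with VPS72, apart by a log2 fold change of 0.07 ± 0.03. KIF2C (MCAK), which takes microtubule ends apart, had 0.09 ± 0.06, HMMR, a spindle-associated protein, 0.12 ± 0.09 and DLGAP5 (HURP), which stabilises kinetochore fibres, 0.10 ± 0.06, all with overlap. ASPM, a spindle pole protein, overlapped between groups (617 to 680 against 651 to 695 CPM, 0.03 ± 0.04).

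The 5 cytokinesis genes had the smallest median of the role groups, 0.06, and 0 of 5 passed. KIF20A (MKLP2), which carries the passenger complex to the midzone, was at 81.7, 81.0 and 81.2 CPM in FLAG and at 92.9, 91.5 and 90.2 CPM with VPS72. Both groups were tight and apart, at 81.3 ± 0.36 and 91.5 ± 1.33 CPM (SD, n = 3), and the test was not passed at a log2 fold change of 0.17 ± 0.04 (edgeR, adjusted p = 0.0932). KIF20A shares exon bases with CDC23 and BRD8 on the other strand, which stood at 51.1 to 55.8 and 43.5 to 48.6 CPM over the 6 libraries. ANLN (anillin), the scaffold of the contractile ring, had 0.08 ± 0.04, KIF23 (MKLP1) 0.06 ± 0.04 and ECT2, which activates RhoA there, 0.06 ± 0.04.

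Among 6 genes of chromosome condensation and structure 0 passed, with a median of 0.09. TOP2A, the topoisomerase that untangles sister chromatids, was at 450, 437 and 417 CPM in FLAG and at 485, 475 and 490 CPM with VPS72. MKI67 (Ki-67), which coats mitotic chromosomes and is used as a mark of cycling cells, was at 831, 844 and 812 CPM in FLAG and at 900, 878 and 946 CPM with VPS72. Neither overlapped, with log2 fold changes of 0.15 ± 0.04 for TOP2A (edgeR, adjusted p = 0.0631) and 0.13 ± 0.03 for MKI67 (edgeR, adjusted p = 0.0791). With the trend on abundance removed, the MKI67 log2 fold change was 0.08 (edgeR, adjusted p = 0.37) and the TOP2A log2 fold change 0.11 (edgeR, adjusted p = 0.235). Of the condensin subunits, NCAPG had 0.11 ± 0.04, SMC4 0.07 ± 0.04 and SMC2 0.05 ± 0.05. NCAPH ran from 77.1 to 83.7 CPM in FLAG and from 79.8 to 84.8 CPM with VPS72 (0.01 ± 0.05), and its sign turned with other settings.

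Levels per length set the members in another order than CPM. On CPM per kb of the principal GENCODE 29 transcript, SMC4 was highest in FLAG at 141, followed by UBE2C at 105 and TPX2 at 103, while CCNB1 stood at 73.9, CDK1 at 43.3 and CCNB2 at 24.7. NUSAP1, a microtubule bundler, and PRC1, the midzone crosslinker, were lowest at 0.61 and 0.93 CPM per kb. In CPM, NUSAP1 ran from 0.84 to 1.14 in FLAG and 0.89 to 1.36 with VPS72, and PRC1 from 2.30 to 3.26 and 2.73 to 3.16. Each shares exons on the same strand with another annotated protein-coding gene in GENCODE 29, as do BUB1B and CENPA, and the levels of those partners of NUSAP1 and PRC1 were not analysed here. Their standard errors, 0.38 and 0.23, were the largest of the members. In 16 members exons overlap a gene on the other strand, and the sources used here do not say whether counting used strand.

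Seen by library, the members' median separated the groups. Measured from the FLAG mean, the median of the 50 genes on the log2 scale was 0.01, 0.02 and -0.03 in the FLAG libraries against 0.12, 0.12 and 0.10 after overexpression. FLAG values lie near 0 by this measure, so it restates the fitted differences by library and is no separate support. FLAG replicate 3 had the lowest value of its group in 24 of 50 members, against 17 for FLAG replicate 1 and 9 for FLAG replicate 2. In 37 members all 3 VPS72 libraries lay above the FLAG mean. The share of all tested genes that did so was not counted, so nothing about the members is read from this count. The members summed to 6806 to 7067 CPM in FLAG and 7410 to 7574 CPM with VPS72. Within groups the members varied less than other genes, with a median coefficient of variation of 4.21% in FLAG and 3.79% in VPS72, against 7.26% and 6.96% over all tested genes, at a median level of 86.8 CPM against 21.3 CPM. The 95% interval of 45 of the 50 log2 fold changes held the members' median of 0.12. That median comes from the same 50 values and many intervals are wide, so this does not show a shift common to the members.

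**Figure D4:**
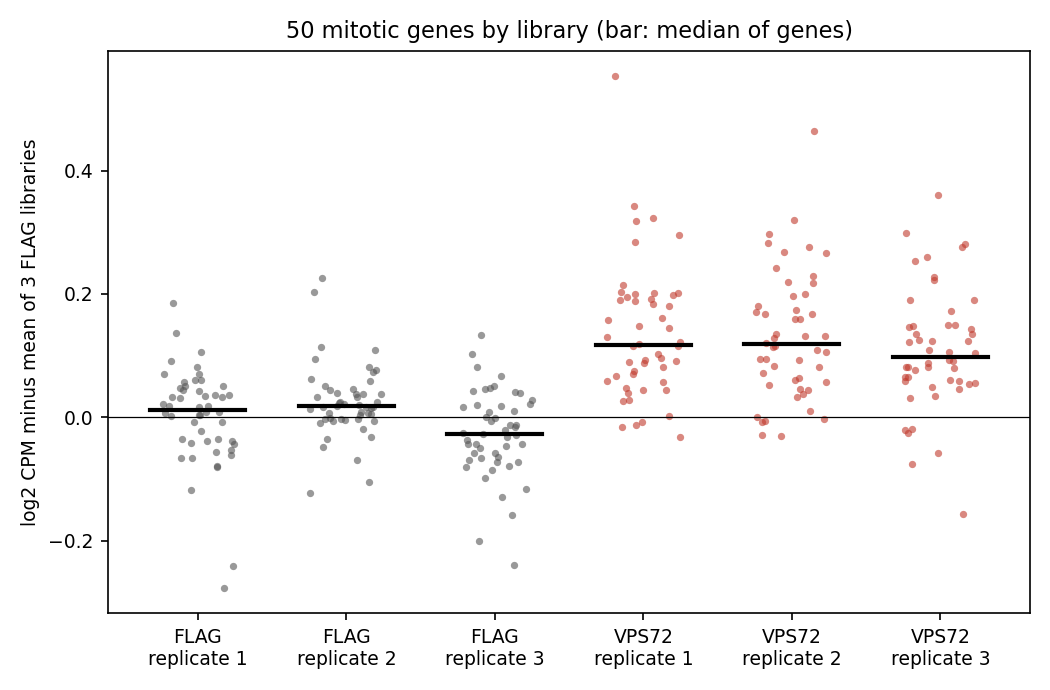
Log2 CPM of each of the 50 mitotic genes (points) minus its mean over the 3 FLAG libraries, by library, with the median of the genes (bars). The bars lie at -0.03 to 0.02 in FLAG and 0.10 to 0.12 with VPS72, while single genes overlap between the groups.

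The other genes of the pathway, 178 in 10 lists, had a median of 0.04 over 176 tested, and 0 passed over all genes with edgeR. At an unadjusted p under 0.05, 23 were higher and 6 lower, against 6.03% and 5.51% of all tested genes. DESeq2 called 2 higher and 1 lower, against 186 and 63 of all 14253 tested genes, and limma-voom 0. The lists nearest to the members were G1/S and replication genes, with a median of 0.08 and 22 of 24 positive, and other spindle and cytokinesis genes, with 0.08 and 24 of 26. Of all tested genes 48.8% were positive, the share to set beside each list count here and below. RRM2, the ribonucleotide reductase subunit of S phase, went from 183 ± 6.09 to 203 ± 1.55 CPM (SD, n = 3; log2 fold change 0.15 ± 0.04; edgeR, adjusted p = 0.101), MCM3, a subunit of the replicative helicase, had 0.10 ± 0.04, and KPNA2 and SPAG5 had 0.10 ± 0.03 and 0.12 ± 0.04.

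Of the DREAM and MuvB list, with a median of 0.06 and 8 of 12 positive, TFDP1, the E2F partner DP1, went from 66.4 ± 2.02 to 77.3 ± 4.91 CPM (SD, n = 3; 0.22 ± 0.06; edgeR, adjusted p = 0.0887), and RBBP4, a MuvB core subunit, had 0.07 ± 0.04. The kinetochore lists had medians of 0.03 (inner, 16 of 21 positive) and 0.01 (outer, 11 of 18). Within them CENPI had 0.18 ± 0.05, CENPO 0.15 ± 0.05 and SKA1 0.20 ± 0.06, while SKA2, of the same microtubule-binding complex as SKA1, had -0.14 ± 0.04, with groups apart in each.

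The other 5 lists had medians between -0.03 and 0.03. The APC/C list, which besides subunits holds the E2 enzyme UBE2S and the activator FZR1, had a median of -0.02 with 7 of 16 positive. In it UBE2S with 0.14 ± 0.06 and ANAPC4 with 0.10 ± 0.05 had the smallest p. Centrosome genes had -0.03 with 6 of 18 positive, CEP97 at 0.17 ± 0.08 and CEP135 at -0.17 ± 0.08. Genes that brake CDK1 or switch mitotic entry and exit had 0.02 with 9 of 15 positive, with CDC25B at 0.14 ± 0.05 and CDC14B at -0.18 ± 0.07. Other condensin and cohesin genes had 0.03 with 9 of 15 positive, where STAG1, a cohesin subunit, went from 87.9 ± 4.23 to 76.7 ± 1.94 CPM (SD, n = 3; -0.20 ± 0.05; edgeR, adjusted p = 0.0877) and NIPBL, the cohesin loader, had -0.11 ± 0.04. CDK inhibitors and antiproliferative genes had -6e-04 with 5 of 11 positive, with CDKN2C (p18) at 0.47 ± 0.17 and CDKN2B (p15) at -0.17 ± 0.05. Differences between these lists and the members were not tested.

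**Figure D5:**
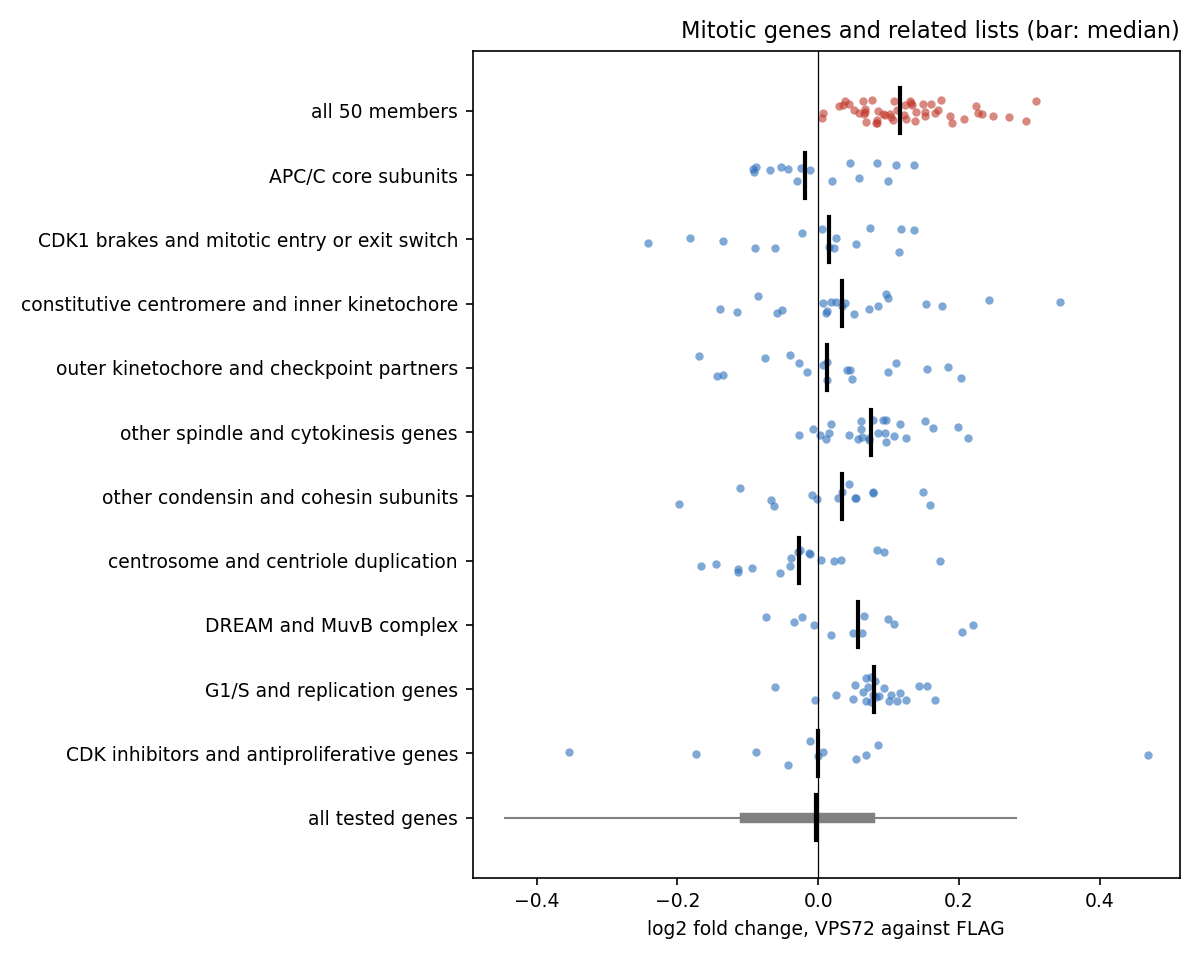
Log2 fold changes, VPS72 against FLAG, of the 50 mitotic genes (red points) and of the tested genes of 10 related lists (blue points), with list medians (black bars). The grey line for all tested genes spans percentiles 5 to 95 and its thick part percentiles 25 to 75. The members' median is 0.12, those of the related lists run from -0.03 to 0.08, and that of all tested genes is -0.0038.

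Against the promoter letters, the 28 members with both a CHR hexamer and a CCAAT pentamer in 1 promoter had a median log2 fold change of 0.14, with a range of 0.01 to 0.31. The 14 other members with a promoter entry had 0.08, with a range of 0.01 to 0.19. NCAPH, at 0.01, and CDC25C, at 0.31, were both among the 28, so the ranges overlap. This is a description of 42 genes and was not tested.

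Hepatocyte markers, used to check the cell line, were all detected, and the 12 summed to 20440 to 21340 CPM in FLAG and 23160 to 23970 CPM with VPS72, without overlap and in the direction of the members. By edgeR 8 of the 12 passed, all higher (ALB, AFP, APOB, TTR, SERPINA1, FGB, FGA and TF), against 0.421% of all tested genes called higher. Their log2 fold changes ran from 0.14 for APOB to 0.34 for TTR. These 8 had FLAG means from 112 CPM for TTR to 8300 CPM for APOB, where the members' median level was 86.8 CPM. The number of markers that passed is therefore not to be compared with the 2 of 50 members. The part of the hepatocyte markers in the result was not tested. Markers of other cell types stood far lower. The 8 fibroblast markers summed to 10.1 to 11.3 CPM in FLAG and 10.1 to 10.6 CPM in VPS72, with POSTN at 0 in all libraries. The 8 immune markers summed to 10.9 to 12.6 and 13.8 to 14.4 CPM, nearly all from LYZ, with NKG7 at 0 in all libraries and PTPRC at 1 count in 1 library, and their part in the result was not tested. The 7 endothelial markers summed to 2.88 to 4.55 and 4.13 to 4.97 CPM, nearly all from PECAM1.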

How the data were processed

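RNA sequencing of 6 Huh7 libraries was analysed from 1 table of gene-level values. The authors deposited estimated counts per gene symbol, as whole numbers and not normalized. STAR, RSEM and limma are named, per the submitters' processing notes, with the builds hg19 and hg38 and no role, order or version. Estimating counters divide reads between similar genes. The groups come from the sample titles.

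Genes were filtered with filterByExpr (minimum count 10, minimum total 15), which kept 99.925% of counts. Libraries were scaled by TMM and compared with edgeR's quasi-likelihood test (edgeR 4.0.16, R 4.3.3), adjusted by Benjamini-Hochberg over 14253 genes. Standard errors are the log2 fold change divided by the square root of F, and CPM uses TMM-scaled totals. The common coefficient of variation was 7.24%. No library pair of a group was a duplicate (chi-square over its degrees of freedom, 4.7 to 7.69). DESeq2 1.42.0 and limma-voom (limma 3.58.1) were among 18 alternatives. Named were members past the threshold, 6 classical members, those with the smallest and largest p in each of 9 role groups, and 2 genes with the smallest p per related list. CDC25C and other members given by value alone, and non-members beside an overlapping gene, were chosen after their values were seen. The members and lists were chosen with earlier results of these data known. GENCODE 29 (GRCh38) gave lengths and overlaps. The sources used here do not tie the counts to 1 build, and the files hold no coordinates.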

Additional observations from a re-analysis of the deposited data

How the results depend on the processing

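With 2 members and 88 genes called by edgeR, counts of calls moved with most choices. Members called higher were 0 with library size only, 1 with upper quartile scaling, 1 with a minimum count of 50, 1 with the abundance trend removed, 4 with limma-voom, 8 with no filter on low counts, 10 with DESeq2, 11 with trends on GC content and length removed, and 0 to 1 when 1 library was left out. No alternative called a member lower. Genes changed in the whole table were 264 with no filter, 249 with DESeq2, 57 with the abundance trend removed, 311 with the GC and length trends removed, and 25 to 100 when 1 library was left out. Related genes called were 1 with library size only (STAG1), 4 with no filter, 3 with DESeq2 and 4 with the GC and length trends removed. Members had a median GC content of 43.2%, against 48% for tested genes.

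The members' median of 0.1169 was 0.0854 with library size only, where that of all genes was -0.0353. With the abundance trend removed it was 0.1005, where that of all genes was 0.0014. With the GC and length trends removed it was 0.1412, where that of all genes was 0.0238. It was 0.1034 to 0.1385 when 1 library was left out. From 47 to 50 members were positive over the 18 alternatives. Changed genes were 60 higher and 28 lower with TMM, 32 and 54 with library size only, 44 and 32 with upper quartile scaling, 29 and 28 with the abundance trend removed, and 258 and 53 with the GC and length trends removed.

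With the replicate number as a replicate block, 32 genes and 0 members were called (edgeR, adjusted p = 0.124 for the CCNB2 log2 fold change and 0.0862 for the CDCA8 log2 fold change). Deviations of same-numbered libraries from their group means correlated at -0.049, 0.028 and 0.063. So few values from such small groups cannot decide whether the numbers pair the samples, and the labels do not say.

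Among the genes named by rule, signs turned for 5 members. The BUB1B log2 fold change was -0.0256 with library size only, -0.0114 with the abundance trend removed and -0.0055 to 0.021 when 1 library was left out. The NCAPH log2 fold change was -0.0246, -0.004 and -0.0308 to 0.029 under the same settings. The PRC1 log2 fold change was -0.0299 with libraries thinned to the smallest total and -0.0926 to 0.159 when 1 library was left out. When 1 library was left out, NUF2 ran from -0.0234 to 0.1662 and NUSAP1 from -0.0695 to 0.2444. The cause of these shifts was not tested. NUSAP1 had 18 to 36 counts per library and PRC1 had 59 to 91.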
